A study of Mus musculus with 6 samples.

Results

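The set described here is the nuclear-encoded subunits of the respiratory chain, measured as RNA in 2 mouse cell lines. Members were taken by gene symbol: Nduf followed by a, b, c, s or v and a digit, Sdha to Sdhd, symbols starting with Uqcr, Cox4 to Cox8 or Atp5, and Cycs and Cyc1. The rule found 87 of the 34724 genes in the table, with 86 distinct symbols because Atp5o appears under 2 identifiers. They were grouped as 35 genes of complex I, 4 of complex II, 9 of complex III, 20 of complex IV, 17 of complex V, cytochrome c (Cycs), and Atp5s, the ATP synthase coupling factor. Ndufa4 and its relative Ndufa4l2 were counted with complex IV, because Ndufa4 is now known as a subunit of that complex despite its symbol.

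The respiratory chain sits in the inner mitochondrial membrane. Complexes I and II pass electrons from NADH and succinate to ubiquinone, complex III passes them to cytochrome c, and complex IV passes them to oxygen. Complexes I, III and IV pump protons, and complex V, the ATP synthase, uses the proton gradient to make ATP. Most subunits are encoded in the nucleus, complex II entirely so, and the remaining subunits of the other complexes are encoded in mitochondrial DNA, so both genomes have to supply parts of one machine.

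Polyadenylated RNA was read directly, as RNA, on nanopores in 3 libraries of 2H-11 and 3 libraries of SVEC4-10. Both are cell lines transformed with SV40, derived from axillary lymph nodes of adult mice of strain C3H/HeJ. By the labels, 2H-11 is a tumor endothelial line and SVEC4-10 a normal endothelial one, and the comparison asks which transcripts differ between the lines. Each label is carried by a single line, so tumor origin and any other difference between these lines cannot be told apart. Whether libraries of one line stem from different cultures is not stated. A p-value therefore reflects spread among libraries, which may be technical.

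Libraries held between 3628400 and 16798666 counted reads. Levels are given as CPM, the count of a gene scaled to 1000000 counted reads of its library, followed by the SD over 3 libraries (n = 3). Defining endothelial markers were at or near 0: Cldn5, Emcn, Erg, Tie1 and Vwf had no count, and 9 of 10 pan-endothelial markers stayed below 1 CPM in each library. The 10 summed to 1.71 to 2.57 CPM in the 2H-11 libraries and to 1.10 to 2.44 CPM in those of SVEC4-10. Of 4 lymphatic markers, Prox1 and Lyve1 had no count and Flt4 was at 0 to 4.44 CPM. The sum of 159 to 219 CPM and 207 to 213 CPM was nearly all Pdpn, which was not called. Markers of mesothelium moved with the lines: 4 of 5 were tested, all 4 were lower in 2H-11, and their summed level was 40.9 to 44.8 CPM there against 1909 to 2944 CPM in SVEC4-10. Of 8 fibroblast and mural markers, 4 were higher and 1 was lower in 2H-11, with sums of 1541 to 2017 CPM and 1660 to 1924 CPM. Leukocyte markers summed to 3.91 to 5.66 CPM and 3.33 to 8.54 CPM, and all 6 muscle markers stayed under 1 CPM. The part of these differences in the results below was not tested.

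As a whole, respiratory chain transcripts took overlapping shares of the reads of both lines. Among the members with enough reads for a test, a minority differed, in both directions and, apart from Atp5s, by less than 2-fold. The rarest isoforms, which were not tested, are given with complex IV. Members took 3.22%, 3.55% and 3.87% of all counted reads in the 2H-11 libraries and 3.47%, 3.34% and 3.502% in the SVEC4-10 libraries. Of 87 members, 84 had a count and 79 passed the filter on low counts. Among these 79, 5 were higher in 2H-11 (6.33%), where 20.1% of all 13187 genes tested were higher, and 10 were lower (12.7%), where 16.2% of all genes were lower (quasi-likelihood test of edgeR, p adjusted over all genes after Benjamini and Hochberg, threshold 0.05). The 15 members called made up 19.0% of those tested, against 36.2% of all genes, 31.8% of the genes with Ensembl identifiers and 33.1% of those at a mean of 50 CPM or more. Only Atp5s was both called and changed by 2-fold or more, while 24.9% of all genes tested and 9.97% of the Ensembl genes at 50 CPM or more were. The libraries of the lines did not overlap for 28 members (35.4%), against 46.8% of all genes. The median log2 fold change, 2H-11 over SVEC4-10, was -0.05 over the members, 0.00 over all genes and -0.12 over the Ensembl genes at 50 CPM or more. The median size of the change without its sign was 0.22, 0.49 and 0.31. The change was under 1.5-fold for 69 of 79 members.

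For 62 of the 64 tested members that were not called, the 95% interval of the change lay within a 2-fold change either way. The direction of the calls moved with the scaling and with the genes tested. With library size alone in place of TMM factors, 9 members were higher and 8 lower, so the share of higher calls went from 33.3% to 52.9%. With the 10170 genes of Ensembl identifiers only, over which scaling and p-values were recomputed, it was 53.3% (8 higher, 7 lower). These settings moved the median log2 fold change of all genes by 0.09 and 0.10. The count also moved with single libraries: it was 3 higher and 6 lower without 2H-11 replicate 2, 2 higher and 9 lower without SVEC4-10 replicate 3, and 4 higher and 14 lower without 2H-11 replicate 3. A test against a 2-fold change in edgeR called none of the 79, and 0 had an unadjusted p under 0.05 in it. Atp5d lay just inside the threshold at an adjusted p of 0.0489, and Ndufa6 just outside it at 0.0528.

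**Figure D1:**
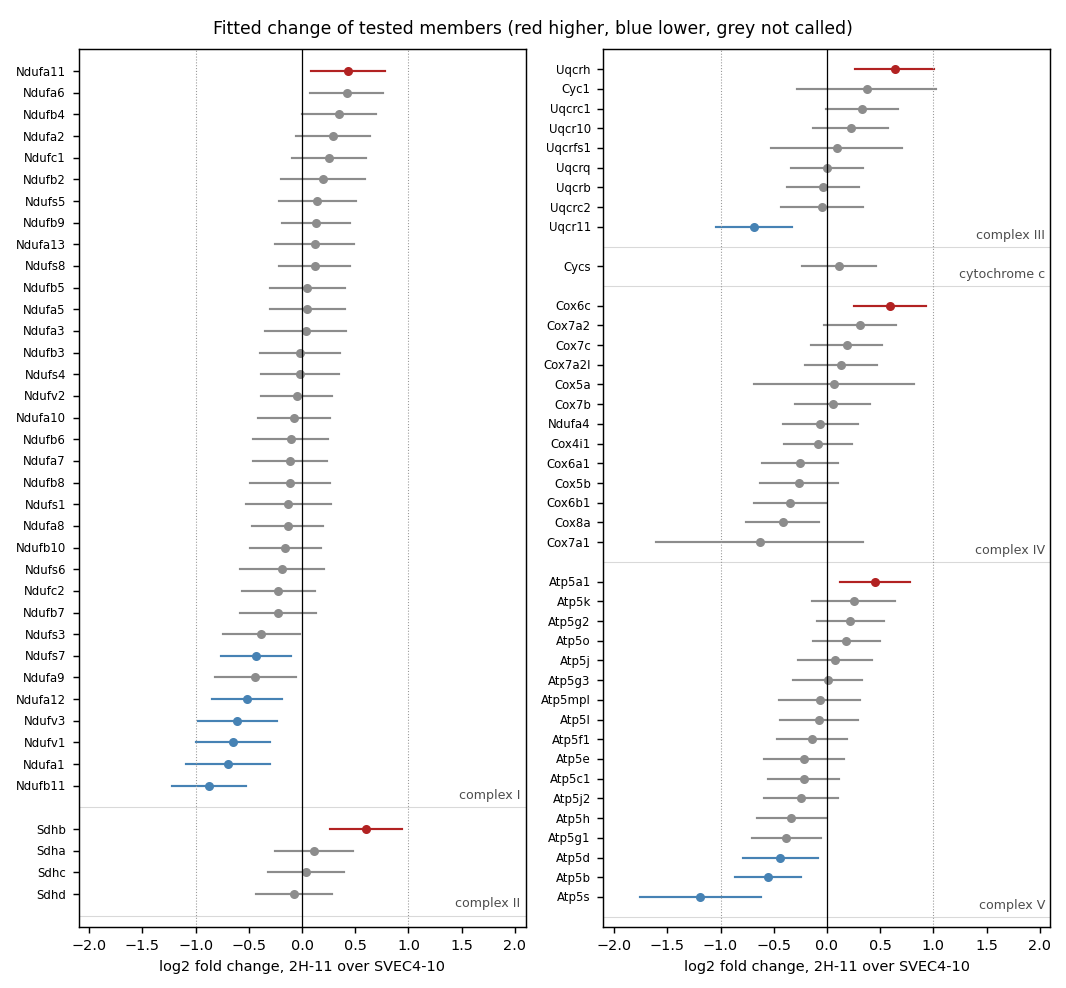
Log2 fold change of 78 of the 79 tested members, 2H-11 over SVEC4-10 (x axis), with bars for the 95% interval and dotted lines at a 2-fold change; members are ordered within each complex, and Atp5s is drawn with complex V. The 5 red members were higher, the 10 blue ones lower and the grey ones not called. Only the point of Atp5s lies beyond a dotted line, and the bars of some other members, such as Ndufb11 and Cyc1, cross one.

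Summed over its members in CPM, without TMM factors, no complex except complex II separated the lines. Complex I summed to 9032, 10020 and 11248 CPM in 2H-11 and to 10143, 9652 and 10011 CPM in SVEC4-10. Complex II summed to 1237, 1087 and 985 CPM in 2H-11 and to 909, 972 and 862 CPM in SVEC4-10, so that the libraries did not overlap and the means stood at a ratio of 1.21. The closest libraries, 2H-11 replicate 3 and SVEC4-10 replicate 2, had TMM factors of 1.004 and 0.917. Divided by these factors, their order reverses, so the separation holds for plain CPM only. The sums of complex III were 3031 ± 404 CPM and 2792 ± 90.7 CPM, those of complex IV 9580 ± 1405 CPM and 8909 ± 422 CPM, and those of complex V 10932 ± 388 CPM and 11169 ± 208 CPM (SD, n = 3), each with overlapping libraries. With 3 libraries against 3, an exact permutation test cannot go below p = 0.10, so no test is given for these sums.

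**Figure D2:**
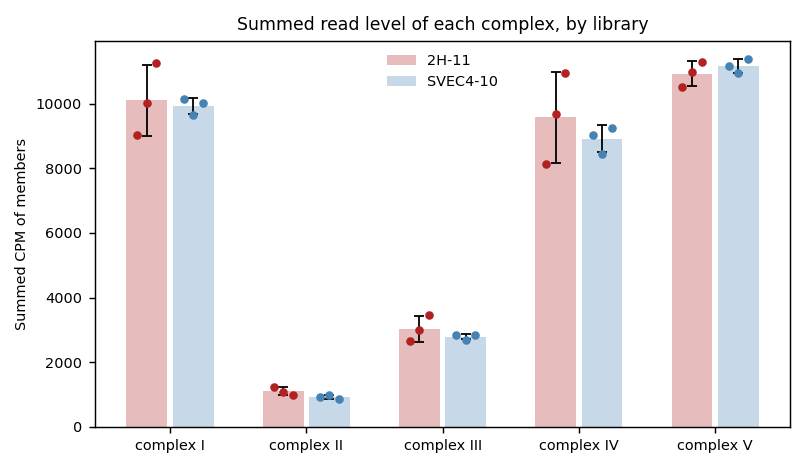
Summed CPM of the members of each complex (y axis, from 0) in 2H-11 (red) and SVEC4-10 (blue); bars are means, error bars are the SD over 3 libraries and points are libraries. The 3 libraries of 2H-11 lie above all of SVEC4-10 in complex II only, at 985 to 1237 against 862 to 972 CPM. This separation holds only for CPM without TMM factors.

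Complex I, the NADH dehydrogenase, held 7 of the 15 calls and 35 of the 79 tested members. All 35 members were tested, and 1 was higher (2.86%) and 6 were lower (17.1%). The shares were 20.1% and 16.2% of all genes tested, and 10.5% and 22.6% of the Ensembl genes at 50 CPM or more. The median log2 fold change was -0.11 in complex I and -0.12 in those Ensembl genes. Among the 7 core subunits, which carry the flavin and the iron-sulfur clusters, 2 were lower by edgeR, 0 were higher (0 also at an unadjusted p under 0.05, by DESeq2 and by limma-voom) and the median was -0.38. Among the 28 accessory subunits, which surround and stabilise the core, 4 were lower, 1 was higher and the median was -0.05. Single libraries moved the count of 7 to between 3 and 9: it was 3 without 2H-11 replicate 2.

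Ndufb11 (ENSMUSG00000031059, chromosome X, 20615326 to 20617619 on GRCm38), an accessory subunit of the membrane arm, was at 142, 141 and 168 CPM in 2H-11 and at 287, 245 and 248 CPM in SVEC4-10. Every 2H-11 library was below every SVEC4-10 library. The means were 151 ± 15.4 and 259.9 ± 23.7 CPM (SD, n = 3), and the fitted level was 1.83-fold lower in 2H-11 (log2 fold change -0.87, SE 0.17, 95% interval -1.22 to -0.53, edgeR adjusted p = 0.000384). This was the smallest adjusted p among all members. The 250 bases before its RefSeq start (chrX:20617620-20617869, minus strand, GRCm38.p6) are shown because it is the clearest single change in the set. Capitals mark a match to the YY1 motif AANATGGC, which begins 211 bases before the start. YY1 is a zinc-finger factor known at promoters of many respiratory genes.
Ndufb11: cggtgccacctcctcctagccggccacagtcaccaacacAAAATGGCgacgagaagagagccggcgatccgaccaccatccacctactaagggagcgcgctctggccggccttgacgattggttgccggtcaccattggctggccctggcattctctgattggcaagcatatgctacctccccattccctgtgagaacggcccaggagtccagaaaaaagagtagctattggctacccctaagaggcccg

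Of the flavoprotein subunits at the start of the electron path, Ndufv1 and Ndufv3 were lower and Ndufv2 was not called. Ndufv1 (ENSMUSG00000037916, chromosome 19, 4007384 to 4012806), the subunit that binds flavin and oxidises NADH, was at 225, 206 and 207 CPM in 2H-11 and at 327, 343 and 266 CPM in SVEC4-10. The libraries did not overlap, and the level was 1.57-fold lower in 2H-11 (log2 fold change -0.65, SE 0.17, adjusted p = 0.00461). Ndufv2, its partner in the same module, was at 288 ± 12.9 and 279 ± 16.7 CPM and was not called (adjusted p = 0.832). Ndufv3 (ENSMUSG00000024038, chromosome 17, 31520115 to 31531331), a small flavoprotein subunit, was at 141, 159.8 and 193 CPM against 265, 201 and 243 CPM. Its level was 1.52-fold lower with no overlap (adjusted p = 0.0111), and was not called without 2H-11 replicate 2 (adjusted p = 0.0537). Ndufs7 (ENSMUSG00000020153, chromosome 10, 80249121 to 80256794), which holds the last iron-sulfur cluster before ubiquinone, was at 226, 233 and 255 CPM against 309, 294 and 302 CPM, and 1.35-fold lower (adjusted p = 0.0381). That call was lost without 2H-11 replicate 1 (adjusted p = 0.0909), 2H-11 replicate 2 (0.154) or SVEC4-10 replicate 3 (0.062). It was also lost under other scaling and other models, and held in 9 of 19 alternative analyses. The core subunits Ndufs1, Ndufs3 and Ndufs8 were not called, with log2 fold changes of -0.13, -0.38 and 0.12.

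Accessory subunits moved in both directions. Ndufa1 (ENSMUSG00000016427, chromosome X, 37187588 to 37191163), a small subunit with 1 membrane span that is needed for assembly, was at 116, 168 and 184 CPM in 2H-11 and at 253, 219 and 241 CPM in SVEC4-10. The libraries did not overlap, and the level was 1.62-fold lower (log2 fold change -0.70, SE 0.19, adjusted p = 0.00692). Ndufa12 (ENSMUSG00000020022, chromosome 10, 94198720 to 94221443), which takes the place of the assembly factor Ndufaf2 in the finished complex, was at 386, 429 and 450.4 CPM against 539, 541 and 612 CPM. It was 1.43-fold lower (adjusted p = 0.0151) and was not called without 2H-11 replicate 2 (0.0641). Ndufa11 (ENSMUSG00000002379, chromosome 17, 56717767 to 56722141), a membrane-arm subunit, went the other way, at 279, 292 and 349.6 CPM against 220.2, 203 and 218 CPM. It was 1.35-fold higher with no overlap (adjusted p = 0.0479). Leaving out any library other than 2H-11 replicate 1 ended that call, with adjusted p between 0.116 and 0.181. The call of Ndufa11 held in 8 of 19 alternative analyses. Ndufa1 and Ndufb11 lie on the X chromosome, where 36.1% of the 299 genes tested were lower in 2H-11. The share was 16.2% of all genes tested and 22.6% of the Ensembl genes at 50 CPM or more. The other X-linked member, Cox7b of complex IV, was at 495 ± 82.0 and 447 ± 29.4 CPM and was not called (adjusted p = 0.84). The chromosome was looked at after these values were seen, and its part in them was not tested. Ndufa2, the complex I member with the highest CPM, was at 694 ± 111 and 533 ± 34.97 CPM and was not called (adjusted p = 0.183).

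In complex II, succinate dehydrogenase, 1 of 4 subunits was called. Sdhb (ENSMUSG00000009863, chromosome 4, 140961203 to 140979193), the iron-sulfur subunit, was at 409, 369 and 358 CPM in 2H-11 and at 222, 256 and 223 CPM in SVEC4-10. The lowest 2H-11 library was well above the highest of SVEC4-10, and the level was 1.51-fold higher (adjusted p = 0.00684, log2 fold change 0.60, SE 0.16). Without SVEC4-10 replicate 3 the adjusted p was 0.0524. Sdha, the flavoprotein that oxidises succinate, was at 199.6, 186 and 144 CPM against 181, 144 and 136 CPM, with a log2 fold change of 0.11 (95% interval -0.26 to 0.48, adjusted p = 0.67). The membrane anchors Sdhc and Sdhd overlapped between the lines as well. Sdhc was at 149 ± 17.7 and 135 ± 16.8 CPM (log2 fold change 0.04, interval -0.32 to 0.40) and Sdhd at 398 ± 56.2 and 392 ± 54.8 CPM (-0.08, interval -0.44 to 0.28). Sdhb was thus the subunit of complex II whose libraries separated the lines, and the intervals of the other 3 include no change.

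In complex III, the cytochrome bc1 complex, 1 of 9 members was higher and 1 was lower (11.1% each). The shares of all genes tested were 20.1% higher and 16.2% lower. Both members called encode small supernumerary subunits. The median log2 fold change was 0.09. Uqcr11 (ENSMUSG00000020163, chromosome 10, 80402997 to 80406830), the smallest subunit, was at 261, 328 and 381 CPM in 2H-11 and at 496, 471 and 499 CPM in SVEC4-10. The libraries did not overlap, and it was 1.61-fold lower (log2 fold change -0.69, SE 0.17, adjusted p = 0.00404). Uqcrh (ENSMUSG00000063882, chromosome 4, 116066965 to 116075071), the acidic hinge protein next to cytochrome c1, was at 266, 329.8 and 386 CPM against 201, 180.0 and 213 CPM. It was 1.55-fold higher without overlap (log2 fold change 0.64, SE 0.18, adjusted p = 0.00828). In both genes replicate 1 was the lowest and replicate 3 the highest of the 2H-11 libraries, while the lines lay apart in opposite directions. The 250 bases before the RefSeq start of each (GRCm38.p6, both on the minus strand) are shown because the pair belongs to one complex and differed in opposite directions. They lie at chr10:80406822-80407071 for Uqcr11 and at chr4:116075071-116075320 for Uqcrh. Capitals mark the ETS/GABPA motif ACTTCCGG on either strand, 66 bases before the start in Uqcr11 and 11 bases before it in Uqcrh, so both hold this match. The last 4 capitals of Uqcr11 are the first part of a match to the short NRF1 motif GCATGCGC that runs past the start.
Uqcr11: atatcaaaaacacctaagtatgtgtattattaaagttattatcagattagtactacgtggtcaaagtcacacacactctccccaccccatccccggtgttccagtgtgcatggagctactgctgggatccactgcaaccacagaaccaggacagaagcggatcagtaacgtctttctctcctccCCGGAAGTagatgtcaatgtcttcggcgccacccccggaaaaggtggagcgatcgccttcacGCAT
Uqcrh: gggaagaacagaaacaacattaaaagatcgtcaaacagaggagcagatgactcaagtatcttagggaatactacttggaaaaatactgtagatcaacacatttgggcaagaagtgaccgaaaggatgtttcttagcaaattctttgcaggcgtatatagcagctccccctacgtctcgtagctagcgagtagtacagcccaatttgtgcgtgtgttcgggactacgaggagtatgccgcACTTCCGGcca

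The core proteins and redox subunits of complex III were not called. Uqcrc1, a core protein, was at 229.8, 199 and 188 CPM against 166, 145 and 149 CPM with no overlap (log2 fold change 0.33, adjusted p = 0.124). It was called as higher under library size alone (adjusted p = 0.0424). Uqcrc2, the other core protein, was at 142 ± 23.4 and 137 ± 17.9 CPM (adjusted p = 0.876). Uqcrq, the complex III member with the highest CPM, was at 790.2 ± 120.5 and 741 ± 15.4 CPM (log2 fold change 0.00, adjusted p = 0.993). Cyc1, the cytochrome c1 subunit, and Uqcrfs1, the Rieske iron-sulfur protein, varied so much within 2H-11 that their intervals were wide. Cyc1 was at 101, 62.4 and 188 CPM in 2H-11 and at 126, 67.5 and 66.6 CPM in SVEC4-10 (interval of the log2 fold change -0.28 to 1.03). Cycs, the soluble electron carrier cytochrome c, was at 647, 747 and 777 CPM against 546, 683 and 649.6 CPM, with overlap and a log2 fold change of 0.11 (interval -0.24 to 0.46, adjusted p = 0.65).

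**Figure D3:**
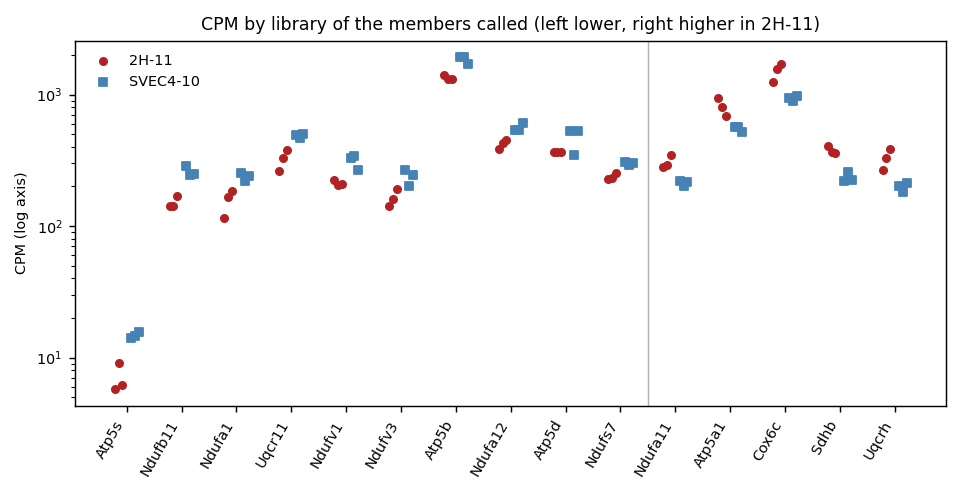
CPM on a log axis of the 15 called members in each of the 3 libraries of 2H-11 (red circles) and of SVEC4-10 (blue squares), with members lower in 2H-11 left of the line and those higher right of it. In this CPM, without TMM factors, the libraries of the lines lie apart for every gene drawn except Atp5d, where SVEC4-10 replicate 2 (346 CPM) is below the 2H-11 libraries (365 to 368 CPM).

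In complex IV, cytochrome c oxidase, 13 of 20 members were tested. By edgeR 1 was higher (7.69%), against 20.1% of all genes tested. By edgeR 0 were lower (2 at an unadjusted p under 0.05, 0 by DESeq2 and 1 by limma-voom), against 16.2% of all genes. Cox6c (ENSMUSG00000014313, chromosome 15, 35925886 to 35938246), a small structural subunit, was at 1245, 1562 and 1718 CPM in 2H-11 and at 939, 901 and 973 CPM in SVEC4-10. There was no overlap, and it was 1.51-fold higher (adjusted p = 0.0073, log2 fold change 0.59, SE 0.16). Cox8a, the complex IV member with the highest CPM, was at 1049, 1266 and 1341 CPM against 1418, 1399 and 1756 CPM. The lines did not overlap, but the log2 fold change of -0.42 missed the threshold (adjusted p = 0.0551). It was called without 2H-11 replicate 3 (0.0266), SVEC4-10 replicate 1 (0.013) or SVEC4-10 replicate 2 (0.033). Cox6b1, on the side facing cytochrome c, was at 544, 618 and 708 CPM against 767, 670.0 and 804 CPM (log2 fold change -0.35, adjusted p = 0.0985, and 0.0317 without 2H-11 replicate 3). Without 2H-11 replicate 3 the calls in complex IV went from 1 to 5. Ndufa4, now assigned to this complex, was at 1087 ± 199 and 1067 ± 70.8 CPM (adjusted p = 0.81).

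Complex IV is the complex with tissue-specific isoforms, and the other forms were under 5 CPM in every library of both lines. Cox4i1, the general form of subunit 4, was at 881 ± 93.7 and 879 ± 42.5 CPM (log2 fold change -0.09, interval -0.41 to 0.24), while its hypoxia-responsive counterpart Cox4i2 had 0 counts in 2H-11 and 4 in SVEC4-10. Cox6a1, the general form of subunit 6a, was at 507 ± 95.6 and 569.7 ± 56.1 CPM (adjusted p = 0.268, and 0.0495 without 2H-11 replicate 3). Cox6a2, the heart and muscle form, had 8, 1 and 2 counts in the 2H-11 libraries and 9, 7 and 56 in those of SVEC4-10, the 56 in the largest library. Per read of the line, SVEC4-10 had 4.06 times as much Cox6a2 (95% counting interval 2.14 to 8.48), from pooled levels under 3 CPM. With single libraries left out, it ranged from 2.82 times without SVEC4-10 replicate 3 (interval 1.23 to 6.71) to 9.65 times without 2H-11 replicate 1 (interval 3.17 to 47.9). The 6 muscle markers summed to at most 0.298 CPM in any library. Cox7a1, the muscle form of subunit 7a, was at 1.90 ± 0.69 and 2.76 ± 1.67 CPM (interval of the log2 fold change -1.60 to 0.34). The general form Cox7a2 was at 999 ± 154 and 759 ± 39.6 CPM (adjusted p = 0.148) and the related Cox7a2l, which helps to join complexes III and IV, at 339.7 ± 18.5 and 289.8 ± 25.6 CPM (0.563).

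The testis form Cox6b2 was counted in 2H-11 alone, with 1, 7 and 11 counts in its libraries and 0 in all 3 of SVEC4-10. Its pooled level in 2H-11 (19 counts, 1.24 CPM) was 10.2 times the limit that 0 counts allow (3 counts over the reads of a line, 0.121 CPM for SVEC4-10). The counting error of the 19 counts is not in this value, so it is not a lower bound. The value rests on the largest SVEC4-10 library, since without replicate 3 it was 3.27 times, and it was 6.95 times without 2H-11 replicate 3. Ndufa4l2, a hypoxia-induced relative of Ndufa4, had 14 counts in 2H-11 and 4 in SVEC4-10, at a ratio per read of the line of 5.65 (95% counting interval 1.77 to 23.6), with all 4 of the SVEC4-10 counts in replicate 3, so that without it that line had 0. Cox8b, the muscle form of subunit 8, had 1 count in each line. Cox7b2, Cox8c and the second Atp5o identifier had none in either line, which allows a level of up to 0.196 CPM (2H-11) or 0.121 CPM (SVEC4-10). These intervals and limits cover counting error only, and the Cox6b2 value covers that of the SVEC4-10 counts alone. The 8 members in this group that failed the filter were left out of the counts of calls above.

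In complex V, the ATP synthase, 1 of 16 tested members was higher (6.25%) and 2 were lower (12.5%). Of all genes tested, 20.1% were higher and 16.2% lower. All 3 members called encode the soluble F1 part. The beta and alpha subunits, which together form the catalytic ring, differed in opposite directions. Atp5b (ENSMUSG00000025393, chromosome 10, 128083273 to 128090391), the catalytic beta subunit and the complex V member with the highest CPM, was at 1418, 1308 and 1319 CPM in 2H-11 and at 1916, 1921 and 1715 CPM in SVEC4-10. It was 1.47-fold lower with no overlap (log2 fold change -0.55, SE 0.15, adjusted p = 0.00603). Atp5a1 (ENSMUSG00000025428, chromosome 18, 77773729 to 77782869), the alpha subunit, was at 946, 800.4 and 687 CPM against 569.6, 572 and 522 CPM. It was 1.37-fold higher with no overlap (log2 fold change 0.45, SE 0.16, adjusted p = 0.0321). The Atp5a1 call was lost without 2H-11 replicate 1 (adjusted p = 0.153) or replicate 2 (0.11), and without SVEC4-10 replicate 1 (0.0951) or replicate 3 (0.162). Atp5d (ENSMUSG00000003072, chromosome 10, 80138632 to 80145818), the delta subunit of the rotating stalk, was at 367, 368 and 365 CPM against 528, 346 and 529 CPM, so that the lines overlapped in CPM. TMM factors were 0.917 for SVEC4-10 replicate 2 and 1.004 to 1.054 for 2H-11, and levels divided by them did not overlap. The 1.36-fold lower level of Atp5d (adjusted p = 0.0489) lost the call when any library other than SVEC4-10 replicate 2 was left out, with adjusted p between 0.0646 and 0.151. The call of Atp5d held in 6 of 19 alternative analyses. Atp5c1 and Atp5e, the other F1 subunits, had log2 fold changes of -0.22 and -0.22 and were not called.

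Outside F1, 0 members of complex V were called by edgeR (2 had an unadjusted p under 0.05) or DESeq2, and 1, Atp5g1, by limma-voom. Atp5g1, Atp5g2 and Atp5g3 encode an identical mature subunit of the rotating c-ring behind different import signals. Atp5g1 was at 521, 576 and 611 CPM in 2H-11 and at 671, 651 and 764 CPM in SVEC4-10 (log2 fold change -0.38, adjusted p = 0.065). Atp5g2 lay the other way, at 1110, 1016 and 1023 CPM against 805, 823 and 900.0 CPM (0.22, adjusted p = 0.27). The libraries did not overlap for either gene, and neither passed the threshold, although Atp5g1 did without 2H-11 replicate 3 (0.04), SVEC4-10 replicate 1 (0.0258) or replicate 2 (0.0458). Atp5g3 was at 1089 ± 28.3 and 1013 ± 132 CPM (0.01, adjusted p = 0.974). The 4 tested genes of the peripheral stalk and the 4 of the membrane part had log2 fold changes between -0.33 and 0.25.

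Atp5s (ENSMUSG00000054894, chromosome 12, 69724950 to 69744660), known as coupling factor B, showed the largest fitted change of the 79 tested members. It was at 5.77, 9.01 and 6.18 CPM in 2H-11 and at 14.02, 14.6 and 15.6 CPM in SVEC4-10. The libraries did not overlap, and the level was 2.28-fold lower (log2 fold change -1.19, SE 0.27, 95% interval -1.76 to -0.62, adjusted p = 0.00188). In 18 of 19 alternative analyses it stayed past the threshold, and the exception was the test against a 2-fold change.

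Because the opposite changes sat within the same complexes, the number of reads of one subunit per read of another in the same library was also compared. This ratio does not depend on library scaling. The pairs were chosen after their values were seen, so the ratios are a description without a test, and they count reads, not protein or molecules. Reads of Atp5a1 per read of Atp5b were 0.668, 0.612 and 0.521 in 2H-11 and 0.297, 0.298 and 0.304 in SVEC4-10, a 2.00-fold difference of the means. Reads of Uqcrh per read of Uqcr11 were 1.02, 1.01 and 1.01 against 0.404, 0.382 and 0.427. Within each line this ratio was nearly constant, at 1.01 ± 0.00799 and 0.404 ± 0.0224 (SD, n = 3), although both genes varied between the 2H-11 libraries. Sdhb per read of Sdhd was 0.956 ± 0.0650 against 0.599 ± 0.0332, and Cox6c per read of Cox8a was 1.19, 1.23 and 1.28 against 0.662, 0.645 and 0.554. In complex I, Ndufv1 per read of Ndufv2 was 0.740 ± 0.0293 against 1.11 ± 0.0858, and Ndufa1 per read of Ndufa2 was 0.223 ± 0.0186 against 0.446 ± 0.0212. In each of these 6 pairs the 3 libraries of one line lay apart from those of the other.

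**Figure D4:**
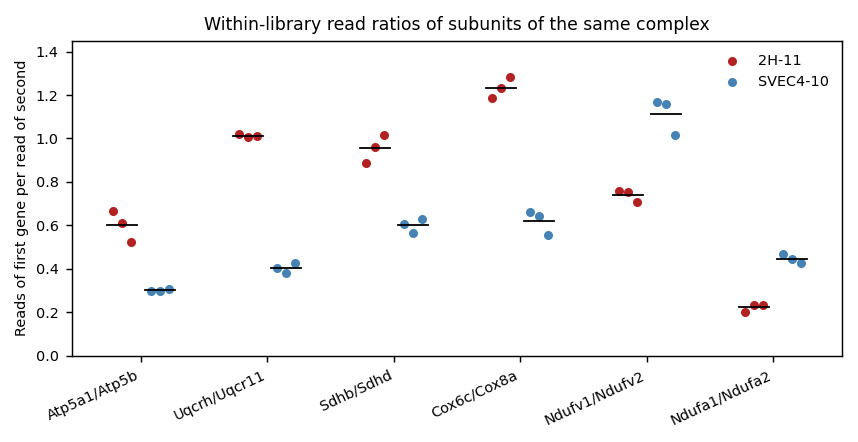
Reads of the first gene per read of the second in the same library (y axis, from 0) for 6 pairs of subunits of one complex, in 2H-11 (red) and SVEC4-10 (blue), with black lines at the means of 3 libraries. The lines do not overlap in any of the 6 pairs, and Uqcrh per Uqcr11 is near 1.01 in 2H-11 and 0.404 in SVEC4-10.

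Much of the variation of the members lay between libraries of 2H-11. Of the 79 tested members, 56 had their highest CPM among the 2H-11 libraries in replicate 3, and 56 had their lowest in replicate 1. In SVEC4-10 the highest value fell in replicates 1, 2 and 3 for 31, 20 and 28 members. The median coefficient of variation of a member was 14.2% in 2H-11 and 7.24% in SVEC4-10. Ratios between libraries of one line went with annotated transcript length, in both lines. For 2H-11 replicate 3 over replicate 1 the median ratio was 1.39 for the 30 members under 700 nt and 0.96 for the 20 members over 1500 nt (Spearman's coefficient across the 79 genes -0.579, Pearson's r -0.508, as a description, since the genes share both libraries). Spearman's coefficient was -0.591 for replicate 2 over replicate 1 and -0.413 for replicate 3 over replicate 2. In SVEC4-10 it was -0.434 for replicate 3 over 2, -0.33 for replicate 1 over 2 and -0.139 for replicate 3 over 1. The fitted change between the lines showed no such relation to length (Spearman's coefficient -0.0444, Pearson's r -0.0431).

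The members Cox5a, Cyc1 and Uqcrfs1 had a coefficient of variation over 40% in 2H-11, and all 3 were highest in replicate 3. Cox5a, a subunit on the matrix side of complex IV, was at 88.0, 95.7 and 291 CPM in 2H-11 and at 221, 107 and 109.8 CPM in SVEC4-10, so 1 library of each line stood apart. Its log2 fold change was 0.06 (interval -0.69 to 0.82), and without 2H-11 replicate 3 it was -0.77 (adjusted p = 0.0244). Reads of Cox5a per read of Cox4i1 were 0.108, 0.114 and 0.295 in 2H-11 and 0.240, 0.128 and 0.125 in SVEC4-10. Cyc1 was high in the same 2 libraries, at 0.995 reads per read of Uqcrc1 in 2H-11 replicate 3 and 0.759 in SVEC4-10 replicate 1, against 0.314 to 0.465 in the other 4. Uqcrfs1 was at 13.02, 13.2 and 27.8 CPM in 2H-11 and at 15.4, 14.3 and 17.9 CPM in SVEC4-10.

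**Figure D5:**
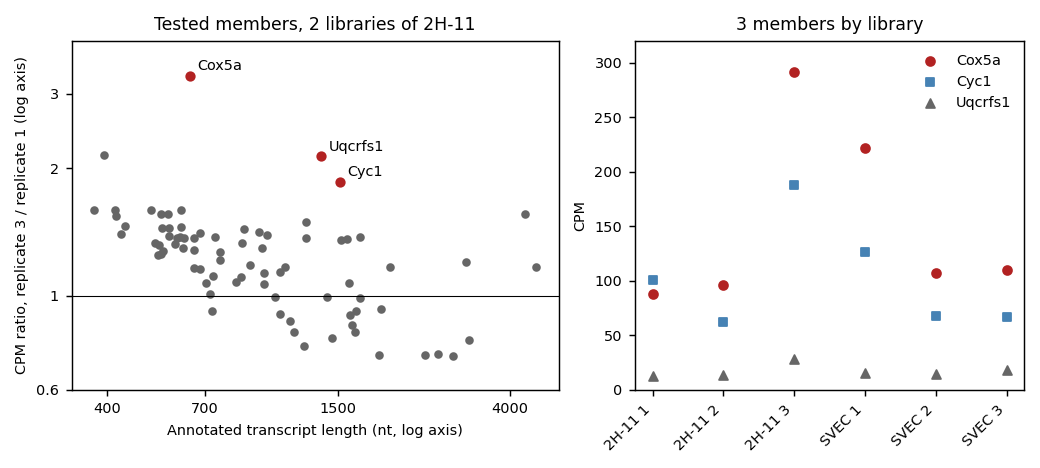
Left, the ratio of CPM in 2H-11 replicate 3 to replicate 1 against annotated transcript length for the 79 tested members, both axes logarithmic, with 3 genes in red; right, CPM of these genes in each library, with the axis from 0. Members under 700 nt have a median ratio of 1.39, and Cox5a reaches 291 CPM in 2H-11 replicate 3 and 221 CPM in SVEC4-10 replicate 1.

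The genes that build, regulate or feed the chain were read from the same fit. Of 46 assembly factors, 42 were tested, 2 were higher (4.76%) and 6 lower (14.3%) in 2H-11, against 20.1% and 16.2% of all genes tested, and the median log2 fold change was -0.01. Coa3 and Cox14, which act together on the newly made mitochondrial subunit Cox1 of complex IV, differed in opposite directions. Coa3 was at 104, 107 and 127 CPM in 2H-11 and at 222, 224 and 171 CPM in SVEC4-10, which was 1.94-fold lower (adjusted p = 0.000392). Cox14 was at 354 ± 37.6 and 206 ± 16.6 CPM, 1.61-fold higher (adjusted p = 0.00248). The other factor called higher was Uqcc2, of complex III, and the other 5 called lower were Ndufaf3, Ndufaf7 and Tmem126b of complex I, Sdhaf2 of complex II and Sco2 of complex IV. Ndufaf3 was at 21.5 ± 1.90 and 37.7 ± 2.27 CPM, 1.86-fold lower (adjusted p = 0.00194).

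Of 15 regulators of respiratory genes, 13 were tested and 1 was lower by edgeR (7.69%), against 16.2% of all genes tested. None was higher by edgeR, DESeq2 or limma-voom, while 20.1% of all genes were higher by edgeR. Among the regulators, 1 had an unadjusted p under 0.05 in that direction. Tfam, which packages mitochondrial DNA and is needed to transcribe it, was at 40.6, 37.5 and 34.7 CPM in 2H-11 and at 74.6, 78.5 and 64.3 CPM in SVEC4-10. It was 2.06-fold lower with no overlap (log2 fold change -1.04, SE 0.19, adjusted p = 0.00028). Gabpa, the DNA-binding subunit of the ETS factor also called NRF2, was at 88.2 ± 11.97 and 60.1 ± 6.21 CPM and missed the threshold (adjusted p = 0.0711). It passed without 2H-11 replicate 3 (0.0394) and with library size alone (0.0256). It also passed with Ensembl genes only (0.0206), with counts thinned to the smallest library (0.0372) and with a trend with transcript length removed (0.0127). None of the 10 tested of 13 mitochondrially encoded subunits was called by edgeR, DESeq2 or limma-voom, and 0 had an unadjusted edgeR p under 0.05. Their median log2 fold change was -0.23. The gene with the smallest p among them, mt-Nd1, was at 2570 ± 1080 and 1647 ± 643 CPM (adjusted p = 0.119). It was called as higher without 2H-11 replicate 3 (0.0375) or SVEC4-10 replicate 3 (0.0196). Next came mt-Nd2, at 54.5 ± 3.08 and 66.0 ± 4.59 CPM (0.131). Levels among the 13 were very uneven. In 2H-11 and SVEC4-10, mt-Nd6 was at 12263 ± 1226 and 9256 ± 1499 CPM and mt-Co2 at 0.76 ± 0.32 and 1.41 ± 1.00 CPM, while mt-Atp8 had no count. How reads were assigned among these genes is not given and was not tested, so a count may not be the level of that subunit's RNA.

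Among 3 nuclear genes of the chain outside the symbol rule, Atpif1, the inhibitor of the ATP synthase, was at 452, 622 and 634 CPM in 2H-11 and at 408, 326 and 382 CPM in SVEC4-10. It was 1.44-fold higher (adjusted p = 0.0209), a call that was lost without 2H-11 replicate 2 (0.12) or 3 (0.0796), or without SVEC4-10 replicate 2 (0.0905) or 3 (0.0718). Usmg5, a small subunit of the ATP synthase membrane part, was at 762 ± 183 and 990.0 ± 23.0 CPM (adjusted p = 0.0512), and Ndufab1 was not called. Several alternatives called Usmg5 as lower. Among them were the fits without 2H-11 replicate 3 (0.00731) or SVEC4-10 replicate 1 (0.0304), limma-voom (0.0356) and no filter (0.0061). Of 12 genes of the citrate cycle, which supplies NADH and succinate, 1 was higher (8.33%) and 5 were lower (41.7%), against 20.1% and 16.2% of all genes tested, and the median was -0.05. Suclg2, of the GTP-forming succinyl-CoA ligase, was at 28.3 ± 6.41 and 54.9 ± 9.95 CPM, 2.07-fold lower (adjusted p = 0.00111). Cs, citrate synthase, was at 557 ± 24.6 and 767 ± 45.1 CPM, 1.47-fold lower (adjusted p = 0.00601). The gene called higher was Ogdh, at 86.2 ± 21.9 and 47.8 ± 10.6 CPM (adjusted p = 0.0092, and 0.069 without 2H-11 replicate 1 or 0.0706 without SVEC4-10 replicate 2).

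Promoters of the members were read for the motifs of factors known to act on respiratory genes, in windows of 300 bases from 250 before to 50 after each RefSeq start, on both strands. Windows were found for 67 member genes and for 27025 genes in all. The full NRF1 motif (GCGC, then AT, then GCGC) was in 5 of 67 member genes (7.46%) and in 1.07% of all genes. The short NRF1 motif GCATGCGC, which lies within the full one, was in 16.4% and 3.05%. The YY1 motif AANATGGC was in 16 member genes (23.9%) against 6.96% of all genes, the ETS/GABPA motif ACTTCCGG in 7.46% against 4.31%, and the CREB motif TGACGTCA in 7.46% against 2.03%. Among called members with a window, YY1 matches were in 0 of 3 higher and 3 of 9 lower genes, and short NRF1 matches in 2 of 3 and 1 of 9. ETS/GABPA matches were in 1 of 3 and 1 of 9, and full NRF1 and CREB matches each in 1 of 3 and 0 of 9. Whether a motif goes with direction was not tested. These are matches of letters in the reference genome, not measured binding.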

How the data were processed

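Direct RNA libraries were made with Trizol-extracted total RNA (1 ug per library) and the Oxford Nanopore kit SQK-RNA002, per the labels' protocols, and the genome builds mm10 and GRCm38 were named, per the submitters' processing notes. Aligner, counter, annotation and use of strand: not given in the sources used here. Values of genes with overlapping neighbours, close paralogs or processed copies may therefore include reads of those. The authors deposited raw read counts per gene, and the same counts as CPM, which equal each count divided by its library total. The authors' own DESeq2 columns were not used. In total 13 broken lines naming no gene were left out.

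Counts of the 6 libraries were tested with edgeR 4.0.16 in R 4.3.3 (filterByExpr with a minimum count of 10 and a minimum total of 15, TMM scaling, quasi-likelihood test with line as the only term), and p-values were Benjamini-Hochberg adjusted over 13187 genes with a threshold of 0.05. The biological coefficient of variation was 20.2%. Fold changes are TMM-scaled and differ slightly from ratios of CPM means. Intervals are 95%, from the SE and the t distribution, and are not adjusted for the number of genes. The procedure was tested on simulated data. Transcript lengths and coordinates came from GENCODE M21 on GRCm38, which held all 87 members, and promoters from RefSeq on GRCm38.p6, whose strain differs from that of the lines.

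The members and lists were chosen with earlier results of these data known. Named were, per complex, the 3 members with the smallest p and the one with the highest CPM, members changed 2-fold or more, the isoform groups (Cox4i, Cox6a, Cox6b, Cox7a, Cox8, Ndufa4 and Atp5g genes), complex II and Cycs, and from each pathway list the genes called with a 2-fold change and the 2 with the smallest p. Other genes named with values were chosen after their values were seen, namely the remaining called and core members of complex I, Ndufa6, Uqcrc2, Cyc1, Uqcrfs1, Cox5a, Cox7b, Atp5c1, Atp5e, Cox14 and Ogdh. So were mt-Nd6, mt-Co2 and mt-Atp8. The values of 1 member are not reported here. Alternatives used DESeq2 1.42.0 and limma 3.58.1 (voom), other scaling and filters, thinned counts, removal of a trend with length, and each library left out in turn. Summaries used pandas 2.3.3 and numpy 2.4.6 in Python 3.11.15, and figures matplotlib 3.10.9.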

Additional observations from a re-analysis of the deposited data

How the results depend on the processing

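Across 19 alternative analyses, Ndufb11, Ndufv1, Ndufa1, Uqcr11, Uqcrh, Cox6c, Atp5b and Atp5s kept their call and direction in all but the test against a 2-fold change, and none of the 15 called members changed sign in any. The calls of Ndufv3 and Sdhb held in 17 of the 19, and that of Ndufa12 in 16. Those of Atp5a1, Ndufs7, Ndufa11 and Atp5d held in 13, 9, 8 and 6. Members called, of 5 higher and 10 lower, numbered 9 higher with library size alone, 8 higher with Ensembl genes only and 16 lower with no filter (84 members tested). Calls in complex IV, 1 in the analysis reported, were 2 with limma-voom, 2 with library size alone and 5 with no filter. The test against a 2-fold change called 0 members higher, 0 lower and 0 in each of complexes I to V. With single libraries left out, members higher ranged from 2 to 5, members lower from 6 to 14, and calls from 3 to 9 in complex I, 0 to 1 in II, 2 to 2 in III, 1 to 5 in IV and 1 to 4 in V, and the median log2 fold change of the members from -0.17 to 0.01. The log2 fold change of Cox5a ranged from -0.77 (without 2H-11 replicate 3) to 0.38 (without SVEC4-10 replicate 1). The cause of these moves was not tested, apart from fewer or more genes and libraries in the fits concerned. The labels state no pairing of libraries by replicate number. Deviations of same-numbered libraries correlated at -0.018, 0.0505 and -0.00256, and not every library correlated best with its own number. With 3 libraries per line these correlations cannot decide whether libraries were paired. With a replicate block, 4 members were higher, 9 lower and 2 in complex IV called, and with the block and the length trend removed also 4, 9 and 2, with 12 of the 15 calls shared each time. With the length trend removed, which also limits the fit to 10169 genes with a length, the median of all genes moved by 0.11 (log2) and that of the members to 0.00. With Ensembl genes only and no such correction, the median of all genes moved by 0.10. For single genes, 1675 values stayed on their side of the threshold, 70 lost and 49 gained a call. Depth limits the rare isoforms, since 0 counts allow up to 0.196 CPM in 2H-11. With library totals that leave out mitochondrially encoded and ribosomal protein genes, every summed level is higher by construction: in 2H-11 and SVEC4-10, complex I summed to 12546 and 12140 CPM, II to 1366 and 1117, III to 3766 and 3412, IV to 11905 and 10888, V to 13567 and 13648, and all members to 44058 and 41989.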
